A study of Rattus norvegicus with 6 samples.

Results

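miR-10 and miR-196 are miRNA families whose genes lie inside the Hox clusters, the arrays of transcription factor genes that give cells of the embryo their position along the body axis. miRNAs of both families repress Hox mRNAs, among other targets, and many adult cell types, fibroblasts among them, keep a set of active Hox genes that reflects the part of the body they come from. Of 375 rodent miRNA assays on the card, 4 belonged to these families by name, namely mmu-miR-10a, mmu-miR-10b, mmu-miR-196b and rno-miR-196c. They were chosen by their miRNA number. The families were picked for description with their levels in both groups in view, so these levels are given here without a test.

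Myocyte-derived cells (MDCs), the small, loosely attached cells collected from prolonged cultures of purified cardiomyocytes, were compared with the cardiomyocytes themselves. All cells came from hearts of Wistar-Kyoto rats, labelled as 2 months old and male by the study's methods, and no cell carried a transgene. The methods kept the prolonged cultures in medium with serum and the growth factors bFGF and TGF-β3, and no inhibitor was used. The labels give the same time in mitogen-rich culture for both groups, whereas the study describes the cardiomyocytes as freshly isolated. Each group has 3 sets of values from TaqMan cards. A well of the card amplifies 1 small RNA and reports a Ct, the number of PCR cycles needed to reach a set fluorescence. A lower Ct stands for more template. Levels are minus the difference between the Ct of a miRNA and the mean Ct of the 4 wells of U6, a small nuclear RNA, in the same set, and each unit on this log2 scale stands for about 1 cycle.

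The mature RNAs are shown because the family members are close in sequence and because bases 2 to 8, the seed that pairs with target mRNAs, group them. The seed is in capitals, and all sequences are those of rat in RefSeq (GRCr8). The assay names give no strand of the hairpin, and the 5p strand is taken.
rno-miR-10a-5p: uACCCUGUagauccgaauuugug
rno-miR-10b-5p: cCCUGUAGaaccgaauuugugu
rno-miR-196b-5p: uAGGUAGUuuccuguuguuggg
rno-miR-196c-5p: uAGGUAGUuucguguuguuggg
Both miR-196 members share their seed. They differ by 1 of 22 bases, with the substitution G12C from miR-196c to miR-196b, counted from the 5′ end. The miR-10b of the rat annotation starts 2 bases later than the base that lines up with the start of miR-10a, so the annotated seeds of the pair are not the same letters. Aligned without gaps, miR-10a and the miR-10b hairpin are identical at 22 of 23 bases, and the substitution is U12A, shown here in capitals.
miR-10a-5p: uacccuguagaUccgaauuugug
miR-10b hairpin, same stretch: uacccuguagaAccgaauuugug
The assays for miR-10a and miR-10b carry mouse names, and the deposited data do not say which 5′ end they read. How much of a signal in 1 of these assays comes from the near-identical partner was not tested.

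The 4 genes lie in 3 Hox clusters (RefSeq, GRCr8). Mir10a, at chr10:81779709-81779818 on the plus strand, lies between Hoxb5 and Hoxb4, 1272 bases before the start of Hoxb4. Mir196c lies in the same HoxB cluster, at chr10:81727551-81727630 on the plus strand, 6227 bases before Hoxb9 and 52.1 kilobases from Mir10a. Mir10b, at chr3:80035859-80035967 on the plus strand, lies within the span of Hoxd4. Mir196b, at chr4:82661101-82661185 on the minus strand, lies between Hoxa9 and Hoxa10. The tables used here do not separate exons from introns. The third rat miR-196 gene, Mir196a in the HoxC cluster, has no assay of that name on the card and was not analysed here.

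The sets did not all look like separate measurements. The 3 MDC sets had signal in exactly the same wells, with U6 wells deviating from their mean alike to within 0.034 cycles, and so did Myocyte 2 and Myocyte 3 (0.011 cycles), whereas Myocyte 1 differed from both in 23 miRNA wells. Sets alike in this way were taken for repeated readings of 1 card and averaged, which left 1 MDC sample and 2 myocyte samples. This is an inference from the values, and the MDC levels were less alike. From percentile 5 to 95, miRNA levels changed by −1.36 to 2.38 from MDC 1 to MDC 2. The range was −2.07 to 2.62 from MDC 1 to MDC 3 and −0.90 to 0.28 from MDC 2 to MDC 3. It was −0.21 to 0.07 from Myocyte 2 to Myocyte 3, and −0.65 to 0.70 from Myocyte 1 to Myocyte 2, which were kept apart. The series' design text names 3 batches of cells per group. The methods name 2 biological and 2 technical repeats, and the study's miRNA figure gives n = 3. The labels would make all 6 sets separate samples, and each SE and call below rests on the merging. MDC 1 also stood apart. All of its 201 miRNA signals lay within 0.1 cycles of a whole cycle number, as compared to 19.9% and 22.4% in the other MDC sets and 17.2 to 21.2% in the myocyte sets. Values are therefore also given without MDC 1. The spread among MDC cultures was not measured, and the number of templates behind a Ct is not known. By limma with Benjamini-Hochberg adjustment, among the 157 miRNAs that both myocyte samples and the MDC sample shared, 44 were higher and 82 were lower in MDCs (80.3% together). Without MDC 1 these counts were 54 and 74, and with all 6 sets as samples they were 35 and 69. All 7 assays of striated muscle miRNAs, with a mouse and a rat assay of miR-1 among them, had signal in myocytes. Of these assays, 5 were lower in MDCs, and miR-208 and miR-208b had no signal there.

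In MDCs, 3 of the 4 members had signal, and in myocytes only miR-10a did. Of all 375 assays, 201 had signal in each MDC set and 203 to 212 in the myocyte sets. miR-10b and miR-196c had signal in every MDC set and in no myocyte set, a pattern found for 35 of the 375 assays (9.33%, or 17.4% of the 201 with signal in MDCs). miR-196b had no signal in any set. As the families were picked with these values in view, nothing is read from this count.

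**Figure D1:**
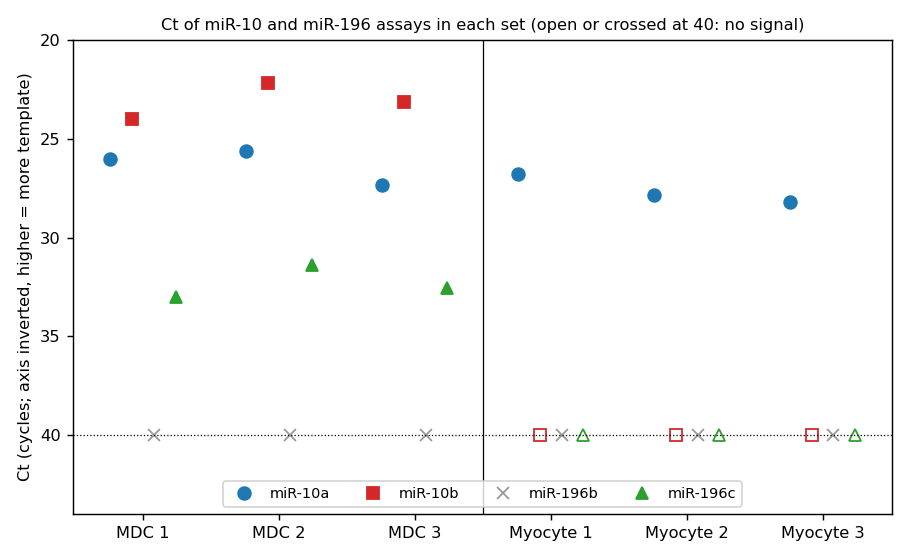
Ct in cycles of the miR-10 and miR-196 assays in the 3 MDC sets and the 3 myocyte sets, on an inverted axis so that more template is higher. Each symbol is 1 assay in 1 set, and symbols at 40 had no signal. miR-10a lies between 25.6 and 28.2 in all 6 sets, whereas miR-10b (22.14 to 23.99) and miR-196c (31.4 to 33.0) have signal in MDCs only.

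mmu-miR-10b, the HoxD member, was the earliest of the 4 to be detected in MDCs. Its Ct was 23.99, 22.14 and 23.11 in MDC 1, MDC 2 and MDC 3, and no myocyte set gave a signal. Its MDC level was −9.15 ± 0.75 (SD over the 3 readings), with −10.02, −8.75 and −8.67 in the single readings. The reading with whole-cycle values was thus the lowest, and the other pair lay within 0.08 of each other. By Ct, miR-10b was 94th, 91st and 86th of 201 miRNAs with signal in these sets, near the middle of those detected. With the missing myocyte Ct set at 40, the difference between MDCs and myocytes was at least 16.01 log2 units, and at least 16.44 without MDC 1. This bound was the eighth of the 35 miRNAs seen in MDCs only, in which miR-221 (19.20) came first and miR-134 (16.34) and miR-543 (16.14) came just before miR-10b.
The bound depends on where detection ends. With a limit of Ct 35 it was 11.01 and with a limit of Ct 32 it was 8.01. The myocyte cards were set against each other to see at which Ct a miRNA seen on 1 was not seen on the other. Whether such a miRNA was lost in a well or differed between the samples was not tested. Of 30 miRNAs with a Ct from 22 to 24 on a myocyte card, which is about the Ct of miR-10b in MDCs, 0 were missing on the other card. The earliest Ct of a miRNA that was seen on 1 card alone was 25.2, and 20 of the 23 such miRNAs had a Ct later than 30.

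**Figure D2:**
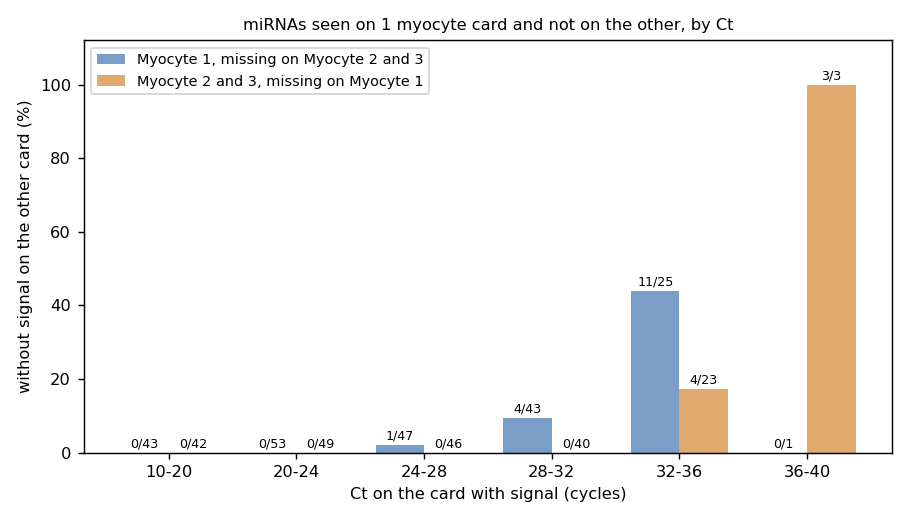
Share of miRNAs with signal on 1 myocyte card that had none on the other, in percent, by the Ct in cycles on the card with signal. Blue bars are for miRNAs seen on Myocyte 1, orange bars for those seen on Myocyte 2 and 3, and the fractions give missing over seen. Below Ct 24 no miRNA was missing on the other card, and 11 of 25 and 4 of 23 were missing from Ct 32 to 36, the range that holds 2 of the 3 MDC readings of miR-196c.

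mmu-miR-10a is a HoxB member, which differs from the aligned stretch of the miR-10b hairpin by the single base shown above. It had signal in all 6 sets, at levels that overlapped between the groups. Its Ct was 25.99, 25.60 and 27.35 in MDCs, and it was 26.78, 27.86 and 28.21 in myocytes. These gave levels of −12.01, −12.21 and −12.91 in MDCs, against −12.09, −12.95 and −13.10 in myocytes, and the highest level in MDCs lay within 0.1 of the highest in myocytes. The mean level was −12.38 ± 0.47 in MDCs (SD over 3 readings) and −12.56 ± 0.66 in myocytes (SD, n = 2 samples). The difference of 0.18 log2 units (SE 0.35 by limma, 95% interval −0.50 to 0.86) was smaller than either SD. The SE is shared by all miRNAs, and the myocyte samples differed in miR-10a more than in most. Between Myocyte 1 and Myocyte 2 its level changed by −0.85, and only 2.55% of the miRNAs with signal in both had a lower change. Without MDC 1 the difference was −0.00.
With U6 as the normalizer, the median size of a difference over the 157 miRNAs was 2.04 log2 units, with a median difference of −0.80, and that of miR-10a was the ninth smallest by size. This place holds for U6 only. It was 13 of 157 with snoRNA135, 50 with the mean of all detected miRNAs and 96 with Y1. As a description, miR-10a fell short of the limma threshold with U6, with snoRNA135, with the median of all detected miRNAs and with no normalizer, and it passed as higher in MDCs with their mean, with the mean of the other controls and with Y1 or U87 alone.

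**Figure D3:**
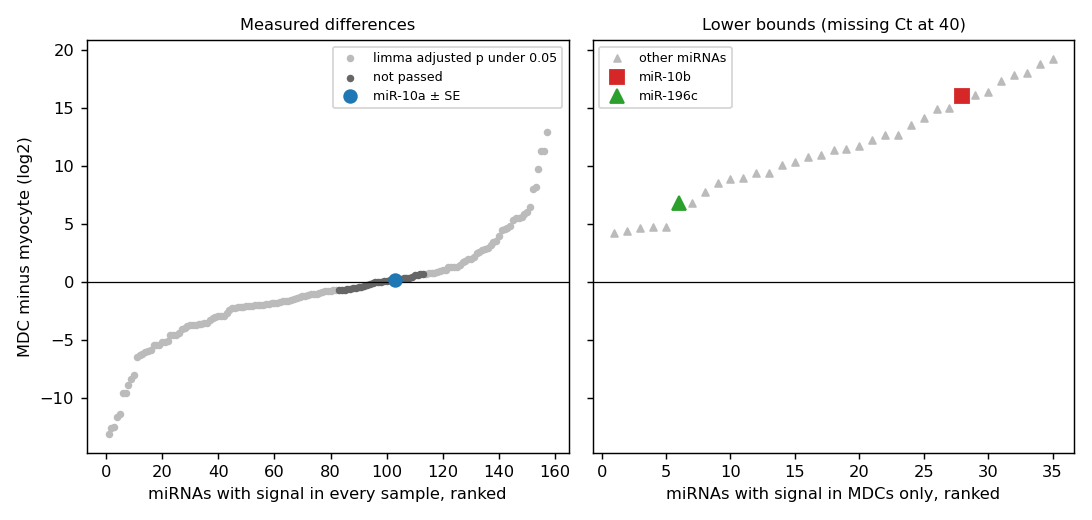
Differences between MDCs and myocytes in log2 units. Left, the 157 miRNAs with signal in every sample, ranked by difference, with miR-10a and its SE in blue at 0.18. Right, lower bounds for the 35 miRNAs with signal in MDCs only, with miR-10b at 16.01 and miR-196c at 6.76.

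Within a set, the Ct of miR-10a minus that of miR-10b needs no normalizer. It was 2.00, 3.46 and 4.24 cycles in MDCs, so that miR-10b came up first in every reading. It was at most −13.22, −12.14 and −11.79 in myocytes, where miR-10a alone had signal. Relative to each other, the pair therefore differed between the groups in every set. The readings of the MDC card did not move these miRNAs alike. From MDC 1 to MDC 3 the level of miR-10a changed by −0.90 and that of miR-10b by 1.34, while the median change of the 201 miRNAs was 1.34. As an assay has its own efficiency, the cycles between the assays are no exact ratio of the amounts. In myocytes the miR-10b assay had no signal beside that of miR-10a. In MDCs both assays had signal, and how far the miR-10a signal and its difference include miR-10b was not tested.

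miR-196c, which lies in the same HoxB cluster as miR-10a, was a late signal of MDCs. Its Ct was 33.01, 31.39 and 32.58 in the MDC sets, and no myocyte set gave a signal. The MDC level was −18.39 ± 0.56 (SD over 3 readings), with −19.03, −18.01 and −18.14 in the single readings, and its Ct was the 192nd, 190th and 189th of the 201 signals. The lower bound of the difference was 6.76 log2 units, and 7.08 without MDC 1. With a limit of Ct 35 the bound was 1.76, and with a limit of Ct 32 no bound could be given. Of 37 miRNAs with a Ct from 31 to 34 on a myocyte card, about that of miR-196c in MDCs, 9 were seen on that card alone. Whether the miR-196c assay also reads miR-196a, which has no assay of that name on the card, was not tested.
Inside the MDC sets, the Ct of miR-196c came 9.01, 9.25 and 9.47 cycles after that of miR-10b, a gap that spanned less than the levels of either. It came 7.02, 5.79 and 5.23 cycles after that of miR-10a. miR-196b, of the HoxA cluster, shares the seed of miR-196c and had no signal in the MDC sets or in the myocyte sets. Of the 6 assays on the card for miRNAs of the Hox clusters, the other two are those of miR-615 in the HoxC cluster, and neither had signal in any set.

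The normalizer sets the size of these values. U6 itself had a mean Ct of 13.98, 13.39 and 14.43 in MDCs and of 14.68, 14.91 and 15.11 in myocytes. Y1, another control RNA, had Ct values of 21.99, 23.31 and 25.52 in MDCs, against 19.65, 20.29 and 20.54 in myocytes. U87 had Ct values of 30.98, 31.15 and 33.18 in MDCs, against 18.56, 18.53 and 18.72 in myocytes, so the controls did not move together. With snoRNA135 alone in place of U6, the miR-10a difference was 0.31 and the bounds of miR-10b and miR-196c were 16.14 and 6.89. With the mean of all miRNAs seen in every set, the miR-10a difference was 1.08, and with Y1 or U87 alone it was 4.67 or 14.27. A normalizer shifts all miRNAs of a set alike, so the gap between the miR-10b bound and the miR-10a difference, 15.83 log2 units with missing wells at Ct 40, is the same with each by construction.

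**Figure D4:**
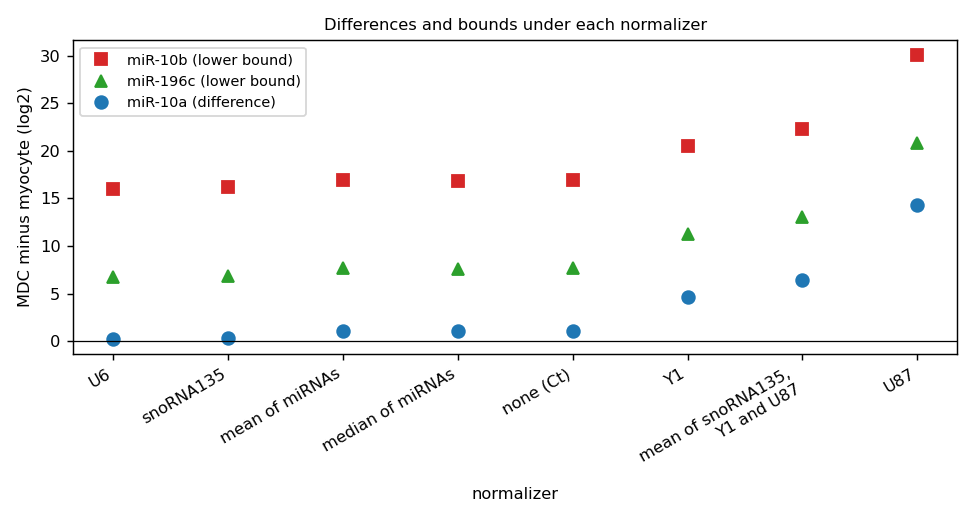
The miR-10a difference and the lower bounds of miR-10b and miR-196c, MDC minus myocyte in log2 units, under each normalizer on the horizontal axis. Each symbol is 1 miRNA. All 3 shift together, and miR-10a lies near 0 with U6 (0.18) and snoRNA135 (0.31) and well above it with Y1 (4.67) and U87 (14.27).

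Relatives of both families by sequence were also on the card. miR-10a shares a run of 11 bases (GUAGAUCCGAA) with miR-100, and miR-196c shares its seed, AGGUAGU, with bases 3 to 9 of let-7a. It belongs to the let-7 family, whose members hold back proliferation in differentiated cells. These are the RefSeq sequences of the relatives, again with bases 2 to 8 in capitals.
rno-miR-100-5p: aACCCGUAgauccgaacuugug
rno-let-7a-5p: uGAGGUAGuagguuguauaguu
All 7 assays of miR-99, miR-100 and miR-125 had signal in every sample. By limma at an adjusted p of 0.05, 2 of them passed as higher in MDCs and 2 as lower, against 28% higher and 52.2% lower among all 157 miRNAs. With snoRNA135, with the mean or the median of all detected miRNAs and with no normalizer, 2, 3, 4 and 4 of them were higher and 0 were lower. The 2 higher ones, miR-125b-3p (6.43 log2 units) and miR-125a-3p (1.72), come from the strand of the hairpin that is not related to miR-10. Of the 5p members, miR-100 had a difference of −0.68 (adjusted p = 0.0644 by limma), with levels of −4.21 in MDCs and −3.53 ± 0.40 in myocytes (SD, n = 2 samples). The median of the list was −0.25, and it was 0.66 with the mean of all detected miRNAs in place of U6. Of 9 let-7 and miR-98 assays, the 4 that passed were all lower in MDCs, among them let-7g (−3.58) and let-7c (−1.96). A further 4, let-7a included (−0.05), fell short of the threshold, and miR-98 had signal in Myocyte 1 only, at a Ct of 25.2. Their median was −0.69 with U6 and 0.21 with the mean of all detected miRNAs, and with the mean of the other controls all 8 tested were higher, as were all 7 of the miR-10 relatives. Without MDC 1, the lists had 2 higher and 1 lower, and 0 higher and 4 lower.
The miRNA whose levels over the 6 sets, each centred on its own mean, were most like those of miR-10a was miR-330, with a root mean square difference of 0.17 log2 units. miR-324-3p (0.41) and miR-296-5p (0.48) followed, as compared to a median of 1.43 over the 156 miRNAs compared. With sets merged as above, the 6 sets stand for 3 samples.

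Of the marker lists of other cell types, the miRNAs abundant in fibroblasts were higher in MDCs, and most others were lower. Among all 157 miRNAs tested, 28% were higher and 52.2% were lower. All 4 assays for miRNAs abundant in fibroblasts had signal in MDCs, 3 were higher there and miR-199a-5p had no signal in myocytes. The log2 of their summed level was −1.81 to −0.86 in the MDC sets and −5.97 to −5.84 in the myocyte sets. Both endothelial assays were lower, with a summed level of −12.84 to −11.39 in MDCs against −3.78 to −3.35 in myocytes. Both smooth muscle assays were lower as well, at −2.90 to −1.73 in MDCs against −0.22 to −0.05 in myocytes. Of 4 leukocyte assays, 3 were lower and miR-142-5p had signal in MDCs only, and the summed level was −13.74 to −11.50 in MDCs against −4.26 to −4.13 in myocytes. miR-451 of red cells had no signal in MDCs. The fibroblast calls had this direction under each normalizer, and the endothelial and striated muscle calls did except with U87 alone, whereas both smooth muscle assays were higher with Y1 or U87 alone or the mean of the other controls, as were 1, 3 and 2 of the leukocyte assays. The study had purified the starting cardiomyocytes by sedimentation, a Percoll density gradient and preplating, steps meant to remove other heart cells. It checked purity by scanning stained cells and by RT-PCR, and detected no stem cell, endothelial or mesenchymal markers. It also traced the progeny of genetically labelled cardiomyocytes in explants of mouse hearts. The part of other heart cells in the miR-10b and miR-196c signals was not tested here. In pooled RNA, a change in the number of cells of a type and a change in RNA per cell cannot be told apart.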

How the data were processed

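Total RNA of MDCs and cardiomyocytes was reverse-transcribed, pre-amplified and read by the authors on TaqMan rodent miRNA cards. The deposited values are Ct in cycles, taken with the SDS software. The threshold and baseline settings are not given in the sources used here. A deposited table of Ct minus mean U6 differed from the same quantity computed here by at most 5.0e-05 cycles. Undetermined and 40 were read as no signal. Levels were −(Ct − mean Ct of 4 U6 wells), on a log2 scale. Sets of 1 group with identical wells of no signal and U6 deviations alike within 0.1 cycles were averaged as 1 card, an inference that the labels do not state, which gave 1 MDC sample and 2 myocyte samples. limma 3.58.1 in R 4.3.3 was fitted to the 157 miRNAs with signal in every sample, with Benjamini-Hochberg adjustment at 0.05 over all of them. All miRNAs shared an SD of 0.28, which comes from the myocyte samples, so the variation among MDC cultures enters no p-value, and the lone MDC sample is assumed to vary as they do. The labels do not say that the cards are of separate animals, and the spread may be technical. The fit was also run on simulated data with known changes, in which every miRNA and both groups had the same spread. Such data cannot test whether the MDC sample varies as the myocyte samples do. The members, the lists and the merging of sets were chosen with earlier results of these data known. The named miRNAs are all assays of miR-10 and miR-196, their sequence relatives, other Hox-cluster miRNAs, the 3 most alike profiles, cell type markers and controls. miR-221, miR-134 and miR-543 were named after their values were seen. Alternatives were other normalizers, limits at Ct 35 and Ct 32, missing Ct at 40, all 6 sets as samples with and without a replicate block, single MDC readings, each set left out, trend and robust moderation, and the unpaired test of the methods. Plots were made in Python 3.11.15 (matplotlib 3.10.9).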

Additional observations from a re-analysis of the deposited data

How the results depend on the processing

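The miR-10a difference of 0.18 log2 units became 1.08 with the mean and 1.02 with the median of all detected miRNAs in place of U6, 1.09 with no normalizer, 6.42 with the mean of the other controls, 4.67 with Y1 alone and 14.27 with U87 alone. In the same order, the miR-10b bound became 16.91, 16.85, 16.92, 22.24, 20.50 and 30.10, and the miR-196c bound became 7.66, 7.60, 7.67, 13.00, 11.25 and 20.85. At a limit of Ct 35 these bounds were 11.01 and 1.76, and at Ct 32 that of miR-10b was 8.01 and that of miR-196c could not be computed. With MDC reading 1 alone they were 15.14 and 6.12. With each set left out, the miR-10a difference ranged from −0.00 to 0.64, the miR-10b bound from 15.77 to 16.44 and the miR-196c bound from 6.57 to 7.08. The difference of miR-10a was negative with MDC reading 3 alone (−0.35).
The 44 higher and 82 lower calls became 140 and 10 with the mean of the other controls, 157 and 0 with U87 alone and 120 and 16 with Y1 alone, the single controls having been added for these counts after the data were seen. With missing Ct at 40, 80 miRNAs were higher and 113 lower of the 240 then tested. The unpaired test of the methods gave 0 and 0 calls with adjustment and 20 and 43 without it. With each set left out except Myocyte 1, whose loss leaves no spread to test with, the counts ranged from 38 to 54 higher and from 74 to 87 lower. With all 6 sets as samples, 35 were higher and 69 lower, and with the replicate block 34 and 69, with a miR-10a difference of 0.33 in both fits. Deviations of same-numbered sets correlated by 0.12, −0.08 and 0.24 (sets 1, 2 and 3), against −0.19 to 0.08 for sets of unlike number. As the MDC sets were taken for readings of 1 card, these values cannot show whether the cultures were paired.
The number of templates in a well is unknown, and late signals such as miR-196c lie where the myocyte cards often differed in signal.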
